A study of Arabidopsis thaliana with 2 samples.

Results

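Small RNAs of plants are made by a handful of enzyme families, and 10 of their genes other than the AGO genes are described here: the Dicers DCL2, DCL3 and DCL4, the RNA-dependent RNA polymerases RDR1, RDR2 and RDR6, the RDR6 partner SGS3, the methyltransferase HEN1, and HYL1 and SE, which work with the Dicer that makes miRNAs. They were taken by locus identifier from the 25224 genes of the exon table, where they have 16 of 33114 transcripts. DCL1 is not among them because its ribo-seq value is suspect.

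Both libraries came from wild-type (WT) Arabidopsis thaliana seedlings aged 13 days, grown on Murashige and Skoog plates, and from 1 material: membrane-bound polysomes (MBPs), the transcripts that sediment with ribosomes on microsomal membranes. For MBP ribo-seq, RNase I was used to trim MBPs to single ribosomes, and the short fragments these covered were sequenced. For MBP mRNA-seq, RNA of the MBPs was sequenced. Each assay had 1 library, so no difference below has a replicate check. Values are RPM, read counts scaled to library depth. The value of 1 read gave a ribo-seq depth of 38438720 reads and an mRNA-seq depth of 66958226 reads, and intervals below are 95% intervals of the read counts, which cover counting error only. The fraction carried the leaf transcripts RBCS1A (9535 RPM in ribo-seq, 13066 RPM in mRNA-seq) and CA1 (5248 and 5526 RPM), with less of CAB2 (58.7 and 318 RPM), and the ER chaperone transcripts BIP2 (124 and 126 RPM) and CNX1 (130 and 119 RPM). Of the other ER-client transcripts listed, CESA1 had 166 and 601 RPM and PIP2;4 only 1.51 and 3.58 RPM. The ER body transcript PYK10 had 171 and 220 RPM, and the seed storage transcripts CRA1 (3.75 and 7.35 RPM) and SESA3 (0.364 and 0.0448 RPM) were low, though CRA1 was above PIP2;4. In whole seedlings, fewer cells that express a gene and less RNA per cell cannot be told apart.

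Dicers cut double-stranded RNA into small RNAs of set lengths, and in Arabidopsis DCL3 makes the siRNAs that direct DNA methylation, DCL4 makes trans-acting and other phased siRNAs, and DCL2 stands in for DCL4 and acts in antiviral defence. RDR enzymes copy single-stranded RNA into the double strand that Dicers cut. HEN1 methylates the finished duplex, while HYL1, a double-stranded RNA-binding protein, and SE, a zinc finger protein, help to process miRNA precursors in the nucleus. None of these proteins is a secreted or classical membrane protein. The question here is whether their transcripts were detected on MBPs and how far ribosomes covered them there. Both libraries are of MBPs, so enrichment on MBPs over other fractions cannot be measured.

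The members of each enzyme family share their catalytic site, where reads of relatives could be mixed up if the coding bases matched. The coding stretches around the polymerase active sites are shown with the codons from the first to the last catalytic aspartate in capitals. They are read 5′ to 3′ on the coding strand of the RefSeq TAIR10.1 assembly, at chr1:5095310-5095339 (minus strand) for RDR1, chr4:6783381-6783410 (plus strand) for RDR2 and chr3:18350597-18350626 (minus strand) for RDR6.
RDR1: tgggagtGATTTAGATGGAGATatttactt
RDR2: tggtggcGATCTCGACGGAGACcagttttt
RDR6: tggcagtGACCTTGACGGGGACctgtactt

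For the Dicers, the first RNase III active site is shown, with the codons from its glutamate to its aspartate in capitals, at chr3:769423-769452 (minus strand) for DCL2, chr3:15758630-15758659 (plus strand) for DCL3 and chr5:6862231-6862260 (minus strand) for DCL4.
DCL2: atcactaGAAACTCTTGGTGACtcttttct
DCL3: gcggttgGAACTGCTCGGGGATtcagtctt
DCL4: aaggcttGAGGTGCTTGGTGATgcattcct

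In these stretches no 30-base window was shared between genes. Of all windows of 30 bases in the coding sequences of the 10 genes, 0% occurred elsewhere in the genome on either strand. A read of that length without mismatches could therefore match 1 locus of the genome only. At the DCL3 locus, 14 of 4743 coding bp also lie in exons of AT3G43930 on the opposite strand. HYL1 was the exception within its own coding sequence. The 3′ part of it is a tandem repeat with a spacing of 84 bp between bases 737 and 1244 of the coding sequence, and 433 of its 1231 windows (35.2%) occurred more than once in it, up to 6 times. The stretch found 6 times, on chromosome 1, reads as follows, with no part in capitals.
HYL1 repeat: cagagaaaattgagacaacgccaaatctgg

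How reads with several map positions were handled in these tables is not given in the sources used here. Whether HYL1 lost or gained reads in its repeat in either library was therefore not tested. For the other 9 genes no window was repeated. Reads shorter than these windows, with mismatches, or across splice junctions of other genes were not checked.

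All 10 genes were detected on MBPs by both assays. Each had at least 1 RPM of ribo-seq reads in its exons, as did 60.5% of the 25224 genes, and each had at least 1 RPM in mRNA-seq. In all, 2843 ribo-seq and 13928 mRNA-seq reads lay in their exons. The fewest lay in RDR1, with 105 ribo-seq reads, and in HYL1, with 446 mRNA-seq reads.

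The ribosome-protected reads of RDR6, DCL2 and DCL4 were few for the amount of mRNA, and those of SE, SGS3 and HYL1 were not. Ribo-seq exon RPM came to a median of 32.4% of mRNA-seq exon RPM over the 10 genes, and to a median of 44.6% (quartiles 28.1% and 66.01%) over the 16879 genes whose exon RPM averaged at least 1. On the log2 scale, with 1 RPM added to each value, the median of ribo-seq over mRNA-seq, called the ratio here, was −1.37 for the 10 genes (range −2.85 to −0.72) and −0.99 for all tested genes (quartiles −1.53 and −0.52). The ratio lay below the median of all genes for 7 of the 10. It lay more than 2-fold below for 3, RDR6, DCL2 and DCL4, as it did for 11.8% of all tested genes. Among the 4182 tested genes with more than 1770 bp of coding sequence, 22.5% did, and 9 of the 10 genes belong there. DCL4 lay less than 2-fold below the median of these longer genes (log2 difference −0.58). The ratio lay more than 2-fold above the median of all genes for 0 of the 10, as for 5.59% of all tested genes.

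**Figure D1:**
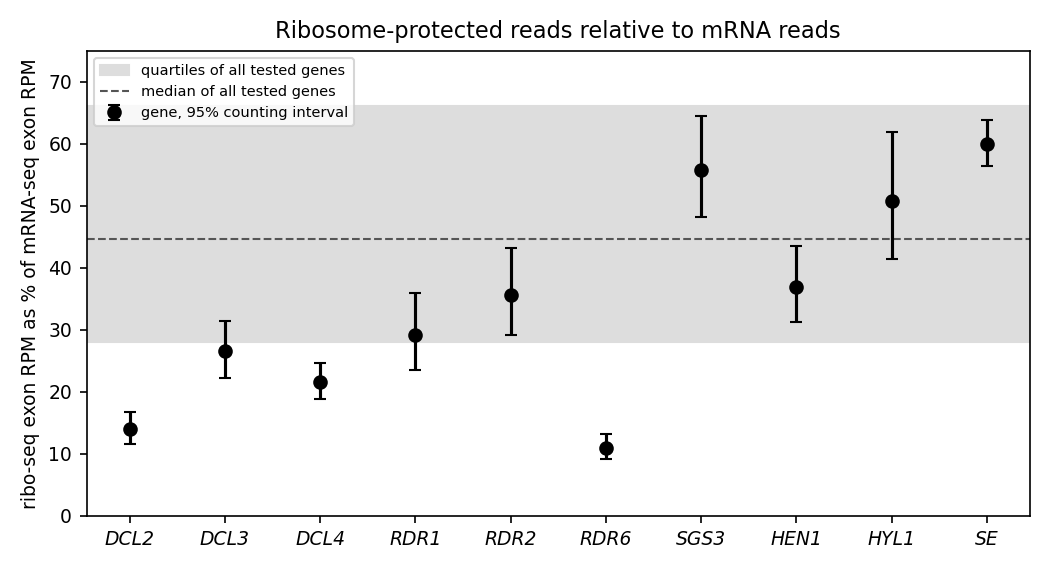
Ribo-seq exon RPM as a percent of mRNA-seq exon RPM for each gene, with 95% counting intervals as bars, and the quartiles (grey band) and median (dashed line) of the 16879 tested genes. RDR6 (11.0%), DCL2 (13.9%) and DCL4 (21.6%) lie below the grey band with their intervals, and SE, SGS3 and HYL1 lie above the dashed line.

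Among the Dicers, DCL2 (AT3G03300, chr3:767880-776214, minus strand) had 3.36 RPM in ribo-seq against 24.1 RPM in mRNA-seq, or 129 and 1616 reads. Its ribo-seq value was 13.9% of its mRNA-seq value (counting interval 11.5% to 16.6%), with a log2 ratio of −2.53, which was 2.91-fold below the median of all genes. Only 4.24% of tested genes had a lower ratio. DCL4 (AT5G20320, chr5:6859212-6869307, minus strand), the main Dicer for phased siRNAs, had 6.24 RPM in ribo-seq against 28.9 RPM in mRNA-seq, or 240 and 1938 reads. This was 21.6% (18.8% to 24.7%), a log2 ratio of −2.05 and 2.08-fold below the median, so DCL4 stood just past the 2-fold mark. DCL3 (AT3G43920, chr3:15753387-15760859, plus strand), the Dicer of the DNA methylation pathway, had 4.03 RPM in ribo-seq against 15.2 RPM in mRNA-seq, or 155 and 1019 reads. Its 26.5% (22.2% to 31.4%) and log2 ratio of −1.69 put it 1.62-fold below the median and inside the 2-fold mark. All 3 Dicers were thus below the median, and the interval of DCL2 did not overlap those of DCL4 and DCL3, while those of DCL4 and DCL3 overlapped each other. Pooled, the 3 Dicers had 524 ribo-seq and 4573 mRNA-seq reads, and 19.96% as much ribo-seq as mRNA-seq RPM.

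The polymerases differed more among themselves. RDR6 (AT3G49500, chr3:18348974-18353673, minus strand), which copies cleaved transcripts on the way to trans-acting siRNAs, had 3.23 RPM in ribo-seq against 29.4 RPM in mRNA-seq, or 124 and 1967 reads. Its 11.0% (9.08% to 13.2%) was the lowest of the 10 genes. With a log2 ratio of −2.85 it lay 3.62-fold below the median of all genes, and only 2.26% of tested genes had a lower ratio. RDR1 (AT1G14790, chr1:5093961-5098270, minus strand), which is known from antiviral defence, had 2.73 RPM in ribo-seq against 9.35 RPM in mRNA-seq, or 29.2% (23.5% to 36.0%) and a log2 ratio of −1.47. RDR2 (AT4G11130, chr4:6780449-6784632, plus strand), the partner of DCL3 in the DNA methylation pathway, had 3.30 RPM in ribo-seq against 9.29 RPM in mRNA-seq, or 35.6% (29.2% to 43.1%) and a log2 ratio of −1.26. The intervals of RDR1 and RDR2 overlapped each other and neither overlapped that of RDR6. The 3 polymerases had similar ribo-seq levels per length, 0.822, 0.971 and 0.898 RPM per kb of coding sequence for RDR1, RDR2 and RDR6. Their mRNA-seq levels per length were 2.81, 2.73 and 8.18 RPM per kb, so RDR6 stood apart from the other two in mRNA-seq and not in ribo-seq.

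SGS3 (AT5G23570, chr5:7942908-7946147, plus strand) protects cleaved RNA and works together with RDR6, but its ratio did not resemble that of RDR6. It had 6.50 RPM in ribo-seq against 11.6 RPM in mRNA-seq, or 250 and 780 reads. This was 55.8% (48.2% to 64.5%), a log2 ratio of −0.75, with 62.6% of tested genes lower. The intervals of SGS3 and RDR6 were far from overlapping. DCL4, the Dicer of that route, lay between them.

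HEN1 (AT4G20910, chr4:11185936-11191123, minus strand), which methylates the ends of miRNAs and siRNAs, had 4.58 RPM in ribo-seq against 12.4 RPM in mRNA-seq. Its 36.9% (31.2% to 43.5%) and log2 ratio of −1.26 were close to those of RDR2, and the interval ended below the 44.6% of the median gene. HYL1 (AT1G09700, chr1:3137649-3140353, minus strand) had 3.38 RPM in ribo-seq against 6.66 RPM in mRNA-seq, or 130 and 446 reads, which gave 50.8% (41.4% to 61.9%) and a log2 ratio of −0.81. The interval of HYL1 held the value of the median gene. SE (AT2G27100, chr2:11572397-11576658, plus strand) had 36.6 RPM in ribo-seq against 61.0 RPM in mRNA-seq, or 1407 and 4084 reads, which gave 60.01% (56.4% to 63.8%) and a log2 ratio of −0.72. SE held the highest ratio of the 10 genes, and 64.4% of tested genes were lower. SGS3, HEN1, HYL1 and SE pooled had 1963 ribo-seq and 6140 mRNA-seq reads, and 55.7% as much ribo-seq as mRNA-seq RPM, against 19.3% for the 3 polymerases (356 and 3215 reads). Each pool was carried by 1 gene: without SE the first came to 47.1% (556 and 2056 reads), and without RDR6 the polymerases came to 32.4% (232 and 1248 reads).

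From low to high, ribo-seq RPM as a percent of mRNA-seq RPM ran RDR6, DCL2, DCL4, DCL3, RDR1, RDR2, HEN1, HYL1, SGS3 and SE. Of the 9 pairs of neighbours in this order, only DCL2 and DCL4 had counting intervals that did not overlap. The order of other neighbours was not resolved at this depth, and the spread between biological samples is not known.

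**Figure D2:**
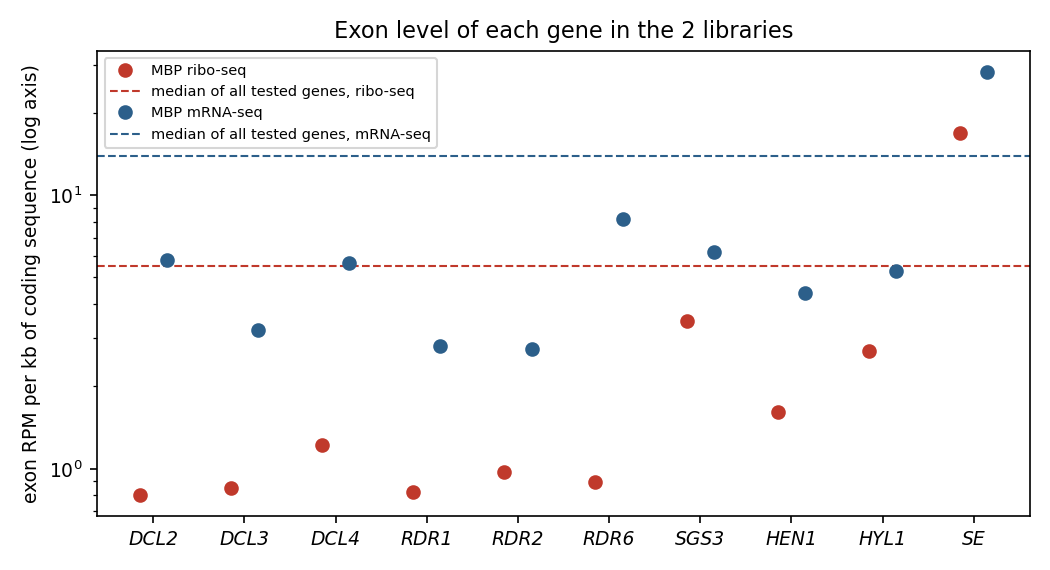
Exon RPM per kb of coding sequence (log axis) of each gene in MBP ribo-seq (red, left) and MBP mRNA-seq (blue, right), 1 library each, with the medians of all tested genes as dashed lines. SE is the only gene of the 10 above the median of either library, and RDR6 and DCL2 show the widest gaps between the points.

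By level per length, SE stood apart from the others. It had 16.9 RPM per kb in ribo-seq against 28.2 RPM per kb in mRNA-seq, against medians over all tested genes of 5.53 RPM per kb in ribo-seq against 13.9 RPM per kb in mRNA-seq. In mRNA-seq 70.7% of tested genes had a lower level per length than SE, and for the other 9 genes this share lay between 10.4% (RDR2) and 33.6% (RDR6). In ribo-seq the next highest levels belonged to SGS3 (3.46 RPM per kb, against 6.20 in mRNA-seq) and HYL1 (2.68 RPM per kb, against 5.29 in mRNA-seq), followed by HEN1 (1.62, against 4.38 in mRNA-seq) and DCL4 (1.22, against 5.67 in mRNA-seq). DCL2 had the lowest, 0.805 RPM per kb in ribo-seq, against 5.79 RPM per kb in mRNA-seq.

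The 10 genes were long, and the ratio moved with coding length. Their coding sequences had a median of 3363 bp, from 1260 bp in HYL1 to 5109 bp in DCL4, and the median of all tested genes was 1209 bp. Across the 10 genes the ratio fell with coding length (Spearman's rho −0.81), as it did across the 16825 tested genes with a coding length (rho −0.46). These correlations are across genes of the same libraries and describe them only. Of the 10 genes 9, all but HYL1, belonged to the top length quartile, the 4182 genes with more than 1770 bp. In this quartile the median log2 ratio was −1.47 (quartiles −1.94 and −1.04), and 22.5% of its genes lay more than 2-fold below the median of all genes. Within it, RDR6 had a higher ratio than 3.97% of the genes, DCL2 than 7.80% and DCL4 than 20.1%. RDR1 stood in the middle, above 49.8% of this quartile, and SE (88.7%) and SGS3 (87.5%) stood near its upper end. Coding length still differed within this quartile, from 1878 bp in SGS3 to 5109 bp in DCL4 among the 9 genes. HYL1 had a higher ratio than 68.8% of the genes in the length quartile below. Measured against the median of its own length quartile, the log2 ratio was more than 2-fold below for 2 genes, RDR6 (−1.38) and DCL2 (−1.06), as for 9.72% of all tested genes, while DCL4 (−0.58) was not, and 5 of the 10 genes lay below that median. The part of coding length in the ratios was not tested.

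**Figure D3:**
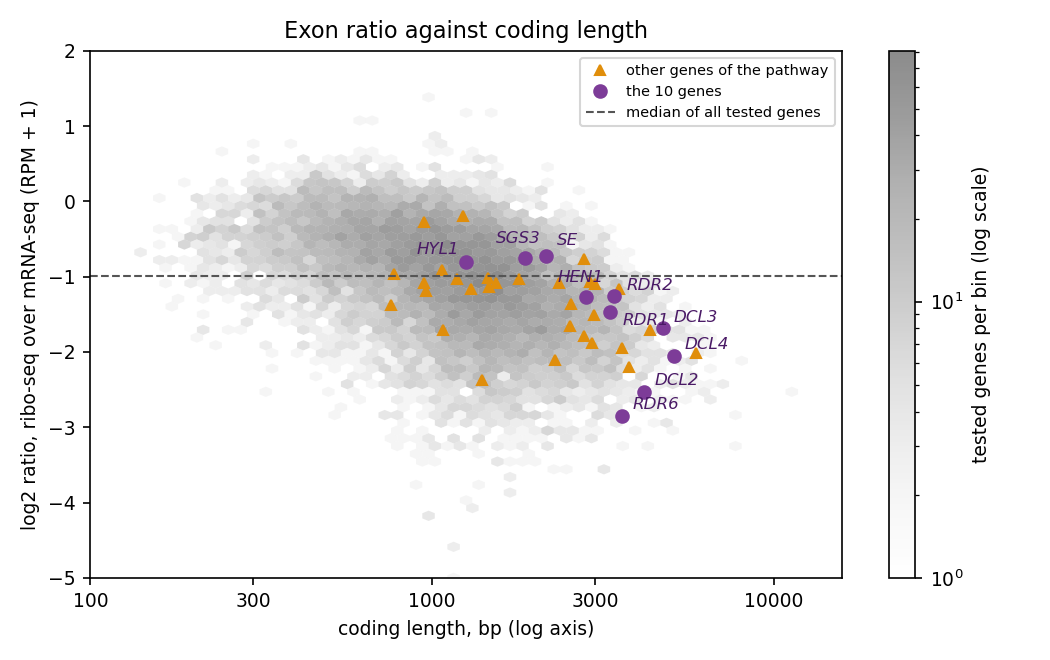
Log2 of ribo-seq over mRNA-seq exon RPM (1 RPM added to each) against coding length (log axis) for all tested genes with a coding length (grey, darker where more genes share a bin; 42 of 16825 lie outside the axes), the 10 genes (purple) and the other genes of the pathway (orange). RDR6 and DCL2 lie more than 2-fold below the median of their length quartile, and SE, SGS3 and HYL1 lie above the dashed median of all genes.

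Several of the 10 genes have more than 1 annotated isoform. A read counts for every isoform it overlaps, and the values above are for the isoform of each gene whose mean exon value was highest. DCL2 isoforms 1 and 3 had identical exon values and different 5′ UTR values, and so did the 2 isoforms of HEN1, so the exon table behaved as coding sequence. DCL2 isoform 2, which is shorter, had 3.12 RPM in ribo-seq against 23.3 RPM in mRNA-seq. DCL3 isoform 1 had 3.85 RPM in ribo-seq against 14.9 RPM in mRNA-seq, and isoforms 2 and 3 shared the values given above. DCL4 isoform 2 had 6.17 RPM in ribo-seq against 28.5 RPM in mRNA-seq. The coding bases that set these isoforms apart held few reads: 9 in ribo-seq and 54 in mRNA-seq for DCL2, or 29.03% (12.6% to 59.3%), 7 and 22 for DCL3, or 55.4% (upper bound 134%), and 3 and 30 for DCL4, or 17.4% (3.40% to 56.0%). At this depth the isoforms could not be told apart by their ratio.

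The 3′ UTRs of the 10 genes were nearly free of ribosome-protected reads. Of the genes 9 had a 3′ UTR value for the isoform used, of which 8 had 0 ribo-seq reads. SE had 1, which was all there was in 2916 ribo-seq reads on the 10 transcripts, or 0.0343% (Wilson interval 0.00605% to 0.194%). In mRNA-seq the 3′ UTRs held 783 of 15370 reads, or 5.09% (4.76% to 5.45%). Over all genes the shares were 3.11% in ribo-seq and 12.2% in mRNA-seq. The clearest cases were SE, with 1 ribo-seq read and 433 mRNA-seq reads, and HYL1, with 0 ribo-seq reads and 132 mRNA-seq reads. With 0 reads seen, a level of up to 3 reads (0.0780 RPM) cannot be told from 0, and the mRNA-seq reads of the HYL1 3′ UTR came to 1.97 RPM. DCL4 had 0 ribo-seq and 72 mRNA-seq reads there. The 3′ UTR took 20.8% of the mRNA-seq reads of HYL1, 9.53% of those of SE and only 0.441% of those of RDR6. For DCL3, isoform 3 had 0 ribo-seq and 2 mRNA-seq reads in its 3′ UTR. Part of the HYL1 3′ UTR, 36 of 311 bp, lies in exons of AT1G09690 on the same strand, which had 92.1 RPM in ribo-seq against 206 RPM in mRNA-seq, and its part in the HYL1 reads was not tested. Of the RDR1 3′ UTR, 192 of 356 bp lie in exons of AT1G14780 on the opposite strand, which had 0.260 RPM in ribo-seq against 0.836 RPM in mRNA-seq, and RDR1 had 0 ribo-seq and 17 mRNA-seq reads there, which cannot be assigned to a strand.

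A UTR can be set against its exons by occupancy, which divides UTR by exon RPM in each assay and takes the log2 of ribo-seq over mRNA-seq, with 0.5 RPM added to each value. For the 3′ UTR only 3 of the genes passed the filter of a mean of 0.5 RPM. Their median was −1.42, with −2.998 for SE, −1.42 for HYL1 and 0.47 for DCL4, and the median of 11238 genes was −1.92. DCL4 and HYL1 had 0 ribo-seq reads in their 3′ UTRs, so their values, and with HYL1 the median, rest on the added 0.5 RPM. The median was −3.42 with 0.1 RPM added and 0.47 without the filter, so it gives no direction.

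The 5′ UTRs gave a different picture, in which RDR6 stood out. Of the 10 genes 8 had a 5′ UTR value, and these 5′ UTRs held 72 of the 2916 ribo-seq reads, or 2.47% (1.97% to 3.10%), and 659 of the 15370 mRNA-seq reads, or 4.29% (3.98% to 4.62%). Over all genes the shares were 1.14% in ribo-seq and 3.91% in mRNA-seq. Nearly all of the ribo-seq reads belonged to DCL2 and RDR6. The other 6 genes had 5 ribo-seq and 176 mRNA-seq reads in total, with at most 2 ribo-seq reads in any of them, so their ribo-seq RPM was 4.95% (1.59% to 11.8%) of their mRNA-seq RPM. RDR1 had 0 and 42 reads in ribo-seq and mRNA-seq, SE 0 and 25, DCL4 0 and 1, HEN1 1 and 11, SGS3 2 and 40, and HYL1 2 and 57. These are for the isoform used. HEN1 isoform 2, which has the same exon values and is not in these totals, had 3 and 24.

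RDR6 had 22 ribo-seq and 66 mRNA-seq reads in its 5′ UTR. The ribo-seq RPM was 58.1% (34.1% to 95.3%) of the mRNA-seq RPM there, against 11.0% (9.08% to 13.2%) in its exons, and these intervals did not overlap. The 5′ UTR held 15.1% (10.2% to 21.8%) of the ribo-seq reads of RDR6 and 3.23% (2.55% to 4.09%) of its mRNA-seq reads. Per base of the 212 bp annotated, it was 3.01 times as densely read as the coding sequence in ribo-seq and 0.568 times as densely in mRNA-seq. These 212 bp are from the newer RefSeq models, and the 5′ UTR in which reads were counted may differ. RDR2, for example, has 73 bp in these models and no 5′ UTR value. The occupancy of RDR6, 2.53, was higher than that of 99.7% of 7029 genes, whose median was −0.87. Occupancy divides by the exon values, so this rank also carries the low exon ratio of RDR6. The rank rests on 22 ribo-seq reads and on the 0.5 RPM added. RDR6 passed the filter of a mean of 0.5 RPM only through its ribo-seq reads, so the rank gives no direction. The 5′ UTR of RDR6 was singled out after its values were seen.

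The 5′ UTR of DCL2 had 45 ribo-seq and 417 mRNA-seq reads, and an occupancy of 0.67. Of its 563 bp, however, 515 lie in the coding sequence of the neighbouring gene AT3G03305 on the same strand (chr3:775368-778396), which had 5.62 RPM in ribo-seq against 21.2 RPM in mRNA-seq. Isoform 3 of DCL2 has a 5′ UTR of 321 bp with 0 bp in that coding sequence, and it had 2 ribo-seq and 34 mRNA-seq reads. Both genes past the filter for the 5′ UTR, RDR6 and DCL2, had an occupancy above 0, and their median was 1.599. Of all genes past it, 24.2% had an occupancy above 0. RDR6 passed this filter only because its ribo-seq reads counted towards the mean. With 0.5 RPM added, its low exon ratio would put its occupancy above 0 even without ribo-seq reads in the 5′ UTR. The count, the median and the rank of RDR6 therefore give no direction. Without DCL2, 27 ribo-seq reads (0.985%) against 242 mRNA-seq reads (1.82%) lay in 5′ UTRs.

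**Figure D4:**
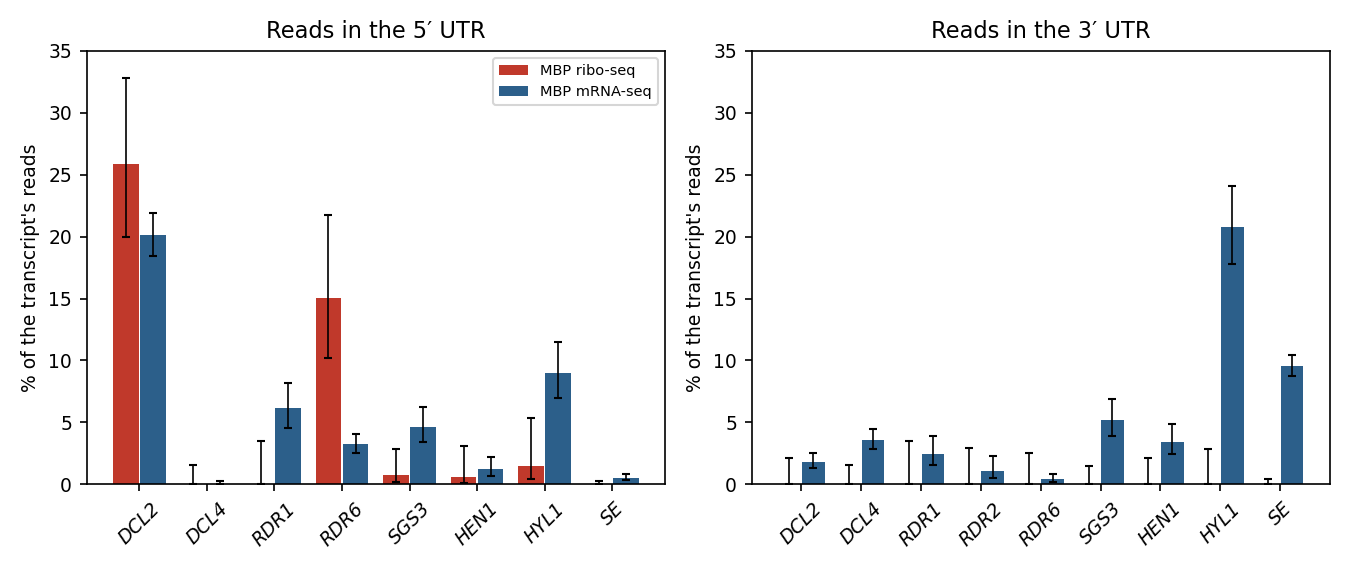
Share of the reads of each transcript that lay in its 5′ UTR (left panel) and 3′ UTR (right panel) in MBP ribo-seq (red) and MBP mRNA-seq (blue), with Wilson 95% intervals as bars. RDR6 has 15.1% of its ribo-seq and 3.23% of its mRNA-seq reads in the 5′ UTR, the 5′ UTR of DCL2 overlaps another gene, and ribo-seq bars are at or near 0 in every 3′ UTR.

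Ribosomes ahead of the start codon can sit on upstream AUGs, so these were counted in the RefSeq 5′ UTRs as a description. RDR6 has 2, each followed by a stop codon within the 5′ UTR, and the longer of these reading frames has 32 codons. An upstream AUG is common: 62.2% of 16297 tested genes have at least 1, with a median of 1 over a median 5′ UTR of 195 bp. Isoform 1 of HEN1 has 6, SGS3 has 4, RDR1 and SE have 3 each, DCL4 has 2 and HYL1 has 0. Their 5′ UTR reads are given above. Few mRNA-seq reads lay in some of these 5′ UTRs, with 1 in DCL4 and 11 in isoform 1 of HEN1. Isoforms 1 and 3 of DCL2 have 15 and 3. The RefSeq 5′ UTRs may differ from those in which reads were counted, and the part of upstream AUGs in the 5′ UTR reads was not tested.

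The proteins were also searched for stretches that could bring a nascent chain to the ER. With a hydropathy window of 19 residues and a limit of 1.6 on the Kyte-Doolittle scale, 0 of the 10 proteins reached the limit in the first 40 residues, where signal peptides lie, as did 14.4% of the 16825 tested genes. Over the whole protein DCL2 (highest window 1.995) and DCL3 (1.74) reached it, and 35.9% of all tested genes did. These windows are a description of the sequence and do not show a membrane segment.

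The other genes of the pathway were given by a list of 30, which covers further RDR genes, RNA polymerases IV and V and their partners, double-stranded RNA-binding proteins, miRNA processing and transcription factors, and enzymes that tail or degrade small RNAs. All 30 passed the filter, as did 16879 of the 25224 genes. At least 1 RPM in ribo-seq was seen for 27 of them, and for 60.5% of the 25224 genes. Their median log2 ratio was −1.16, with 25 below the median of all genes. Of the 30 genes 4 lay more than 2-fold below it and 0 more than 2-fold above it, against 11.8% and 5.59% of all tested genes.

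The 4 lowest were SDN2, a nuclease that degrades small RNAs, with 3.33 RPM in ribo-seq against 21.5 RPM in mRNA-seq (log2 ratio −2.38), CLSY1, a chromatin factor that recruits RNA polymerase IV, with 2.78 and 16.4 RPM (−2.20), the uridylyltransferase URT1, with 17.3 and 78.1 RPM (−2.11), and NRPE1, the largest subunit of RNA polymerase V, with 4.86 and 22.7 RPM (−2.01). These 4 are the lowest by the log2 ratio with 1 RPM added, and by it RDR6 and DCL2 were lower than all of them. By mRNA-seq exon RPM the extremes of the list were CDC5 (35.2 RPM in ribo-seq, 113 RPM in mRNA-seq, log2 ratio −1.65) and PRL1 (40.3 and 82.9 RPM, −1.02), which act in miRNA gene transcription and processing, and RDR3 (0.885 and 4.36 RPM, −1.51) and RDR4 (0.832 and 2.11 RPM, −0.76). Per kb, RDR3 had 0.297 RPM in ribo-seq and RDR4 had 0.299 RPM. RDR5, added after its values were seen, had 0.239 RPM per kb in ribo-seq against 1.802 in mRNA-seq (13.3%, log2 ratio −1.88). By percent, without the 1 RPM added, RDR5 was the lowest of the list, below SDN2 (15.5%) and DCL2 (13.9%). Its counting interval was 8.63% to 19.7%. By the same measure RDR3 (20.3%) was below NRPE1 (21.5%).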

How the data were processed

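MBP ribo-seq and MBP mRNA-seq reads, 1 library each, had been aligned by the authors to TAIR10 with TopHat2 2.0 and assigned to the 5′ UTR, exons and 3′ UTR of each transcript with bedtools 2.23.0 when 80% of a read overlapped a feature, per the submitters' processing notes and the methods. The deposited values are RPM. The mRNA-seq exon column sums to more than the RPM scale allows because reads count for every isoform, so this deposited column was treated as a signal. Strand and multi-mapping are not given in the sources used here for these tables. The authors describe polyA+ selection for RNA-seq, MBP RNA included. They also describe collapsing identical reads and leaving out multi-mapped ones for mRNA-seq in general, and whether these 2 steps covered the MBP mRNA-seq table was not settled here. For ribo-seq no polyA+ step is named.

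Whole reads were recovered for 100% of 54886 ribo-seq and 81165 mRNA-seq values above 0, within 0.05 read or 1e-05 of the value. The smallest value that can be told from 0, 3 reads, was 0.0780 RPM for ribo-seq reads and 0.0448 RPM for mRNA-seq reads. Ratios used a pseudocount of 1 RPM, which understates the differences of low genes, and a mean exon RPM of at least 1. Occupancy used 0.5 RPM for both. Ratio intervals were Clopper-Pearson and shares Wilson. Coordinates, coding lengths and sequences came from RefSeq TAIR10.1, whose transcript models are newer than those of the tables, and hydropathy from the Kyte-Doolittle scale. Percentiles are shares of tested genes with a lower value. All 10 genes were named, with pathway genes past 2-fold and the 2 highest and 2 lowest of the list by mRNA-seq exon RPM. The members and lists were chosen with earlier results of these data known. Alternatives covered the pseudocount, filter, scaling, isoform, UTR values and length, and, chosen after seeing the data, a binomial test on recovered reads and the removal of DCL2 from the 5′ UTR median. The ratio procedure was tested on simulated data. Scripts ran under Python 3.11.15 with scipy 1.17.1, matplotlib 3.10.9, pandas 2.3.3 and numpy 2.4.6.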

Additional observations from a re-analysis of the deposited data

How the results depend on the processing

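With 1 library per assay, nothing here separates the assays from the samples. The number of the 10 genes more than 2-fold below the median was 2 with a pseudocount of 5 RPM (7.79% of all tested genes were), with UTR values added (11.05%) or against the median of the same length quartile (9.72%). Without a filter it was 4 (15.4%), where the median of all genes was −0.59, and otherwise it was 3. A mean of at least 10 RPM also gave 3 (13.3%), with only 4 of the 10 genes tested. RDR6, DCL2 and DCL4 passed this filter through mRNA-seq, with ribo-seq below 10 RPM, so it favours low ratios. With 5 RPM added, the median ratio of the 10 genes was −0.88, and it was −0.79 with each library rescaled to its exon sum, which moved the median of all genes to −0.65 and −0.36. Rescaling gave SE a ratio of 0.0021. A binomial test on recovered reads (Benjamini-Hochberg adjusted p under 0.05, for these 2 libraries and not the assays) called 10 genes lower against library depth (90.1% of all tested genes), 7 against the exon sum (58.7%), and 7 lower (39.6%) and 2 higher, SE and SGS3 (39.7%), against the median gene. The pathway count was 2 with a pseudocount of 5 RPM or with UTR values added, 10 without a filter and 1 against the length quartile. It was 6 with 0.1 RPM added (15.9% of all tested genes), 5 with rescaling to the exon sum (13.3%) and 3 with a mean of at least 10 RPM. In the other settings it was 4. The 3′ UTR median was −3.42 with 0.1 RPM added, −0.77 with 1 RPM added and 0.47 without a filter, and the 5′ UTR median was 0.55 without a filter and 2.53 without DCL2. The causes were not tested, except that the 3′ UTR values rest on counts of 0 and so on the RPM added. No paired analysis was possible because each assay had 1 library.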
